A study of Bos taurus with 8 samples.

Results

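The transcripts described here gave a signal in the lungs of cloned newborn calves and not, at the array's stricter limit, in those of normal newborn calves. The members were chosen by measured values. A probe belonged to the set when its spot was flagged well above background on all 4 clone arrays and on 0 of the 4 normal arrays. Of 43653 probes that are not controls, 8 met this rule, which is 0.0183%. The mirror set, well above background in all 4 normal animals and in 0 clones, held 110 probes, or 0.252%. Since the rule is itself the contrast between clones and normal animals, the members' values below are descriptions without a test.

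The samples were total RNA from the lungs of 8 Holstein calves aged 4 days in the labels, labelled with the dye Cy3 and hybridised to 1-colour Agilent bovine arrays, 1 array for each animal. The clone group comprised 4 cloned calves, all with respiratory failure, and the series text has them dying within that time. The control group comprised 4 normal healthy calves slaughtered at that age. The nuclear donors of the clones, and whether they shared one, are not given in the sources used here. Clone and normal calves thus differ in origin, in disease and in manner of death, and their effects cannot be told apart.

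Signal is given as log2 of the processed signal minus the 75th percentile of the same array, so 0 is the level that 75% of the spots do not exceed. Between 78.75% and 80.55% of probes were well above background in clones and between 80.41% and 83.49% in normal animals. The lowest signal of any probe well above background was -6.57 to -6.14 in clones and -6.91 to -6.41 in normal animals. Each group had a slide of its own, so slide and group cannot be told apart. On this scale the spike-in controls stood 0.68 higher in the clones (log2). Centring on them instead lowers every log2 difference below by 0.68 and turns the sign of any positive one smaller than that. All 12 measured markers of lung tissue, among them SFTPC, AGER and SCGB1A1, were well above background in all 8 animals. In pieces of whole lung, more cells of a type and more RNA per cell cannot be told apart.

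3 of the 8 members had a gene symbol. CBLN2 encodes cerebellin 2, a small secreted protein related to complement C1q. Cerebellins bridge the gap between nerve cells: on the sending side they bind neurexins, on the receiving side the delta glutamate receptors, and so help synapses to form and persist. CBLN2 has also been studied in pulmonary arterial hypertension. SV2A is a glycoprotein in the membrane of synaptic vesicles, the entry receptor of botulinum toxin A and the binding site of the antiepileptic drug levetiracetam. TMEM130 is a membrane protein with sequence kinship to PMEL and GPNMB, proteins of pigment granules and lysosomes. What TMEM130 itself does is poorly known. The other 5 members carry accessions that the gene table did not name, and they are called by their probe, A_73_P081021, A_73_P109231, A_73_107461, A_73_P062721 and A_73_P132876.

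CBLN2, the secreted synapse organiser, read -3.21, -2.61, -3.37 and -1.63 in clones 1 to 4 (log2 signal of probe A_73_P050221). The same probe in normal animals 1 to 4 gave -7.33, -6.93, -8.75 and -7.20. Clone 4 was the highest, and the lowest clone was still 8.13-fold above the dimmest well-measured signal of its own array. Before centring these are 106 to 370 processed signal units in the clones and 4.31 to 12.6 in the normal animals. Because a reading that is not well above background is not taken as a level, the difference is given as a bound. It sets the clones' mean against the mean, over the normal arrays, of whichever is higher, the probe's reading or the lowest signal well above background. By this measure the CBLN2 signal was at least 15.7-fold higher in clones (clones -2.70 ± 0.79, normal animals -7.55 ± 0.81 as measured, log2, SD, n = 4 each). The bound was 9.82-fold with spike-in centring, 8.85-fold with a higher floor set at the 5th percentile of measured signals, and 1.53-fold with normexp background correction.

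TMEM130 read -3.86, -2.75, -1.53 and -3.48 in clones 1 to 4, against -8.50, -8.94, -7.88 and -8.69 in normal animals 1 to 4 (log2 signal). Clone 3 was the highest, where for CBLN2 it was the lowest of the 4. In processed signal units the clones spanned 99.1 to 378 and the normal animals 3.13 to 7.86. TMEM130 was at least 13.7-fold higher in clones (-2.91 ± 1.02 against -8.50 ± 0.45 as measured, log2, SD, n = 4 each). The bound was 8.54-fold with spike-in centring, 7.69-fold with the higher floor and 1.72-fold with normexp.

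SV2A, the synaptic vesicle protein, lay closest to the limit of the rule. Probe A_73_P038211 read -5.78, -5.51, -6.08 and -5.91 in clones 1 to 4, against -7.64, -7.11, -7.71 and -7.61 in normal animals 1 to 4 (log2 signal). The bound was 1.82-fold, and clone 4, the clone closest to its limit, lay 1.17-fold above the dimmest well-measured signal of its array. With the higher floor the bound was 1.02-fold.

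The 5 unnamed members lay between CBLN2 and TMEM130 on one side and SV2A on the other. A_73_P081021 read -5.11, -4.62, -4.82 and -4.86 in clones 1 to 4 and between -8.19 and -6.94 in normal animals, a bound of 3.55-fold. A_73_P109231 read -5.42, -5.72, -4.67 and -3.95 in the clones and between -8.52 and -6.70 in normal animals, a bound of 3.31-fold. The clones agreed closely on the first of these (SD 0.20) and less on the second (SD 0.80). A_73_107461 spanned -5.47 to -4.73 in clones against -7.20 to -6.54, a bound of 2.94-fold. A_73_P062721 spanned -5.79 to -5.13 against -7.31 to -6.78, a bound of 2.17-fold. A_73_P132876 spanned -5.99 to -5.39 against -8.53 to -6.96, a bound of 1.92-fold. The last, like SV2A, was close to the limit, with clone 4 1.19-fold above it. With the higher floor the bounds of these 5 ran from 1.99-fold for A_73_P081021 down to 1.08-fold for A_73_P132876. With spike-in centring they ran from 2.21-fold to 1.19-fold for the same probes, and with normexp none of the 5 had a bound.

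**Figure D1:**
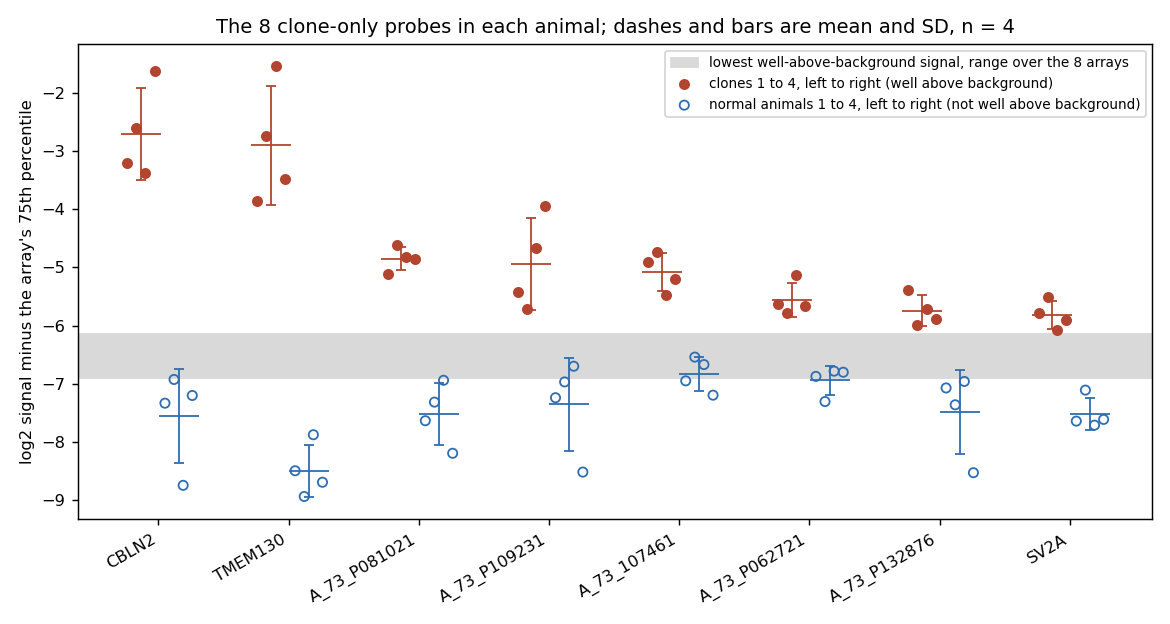
Each of the 8 clone-only probes, ordered by bound, with log2 signal relative to the array's 75th percentile on the vertical axis; filled points are clones, open points normal animals, and dashes with bars are the mean and SD of 4 animals. CBLN2 and TMEM130 stand clear of the grey band of lowest measurable signals (-6.91 to -6.14), while A_73_P132876 and SV2A lie just above it.

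Over the 8 members the median bound was 3.12-fold. The value of every clone exceeded that of every normal animal in all 8, a separation that the rule favours and that 4.75% of the 35636 kept probes also showed. Kept probes are those that cleared the background limit on 4 arrays or more, and all 8 members were kept only through their clone arrays. The median SD among clones was 0.31 over the members and 0.53 over all kept probes (log2 signal). The rule admits only probes on which no clone fell below the limit, so these 2 values are not a like comparison. Among normal animals the median SD over all kept probes was 0.17. The clones did not share 1 order: clone 2 was the highest for 3 members, clones 3 and 4 for 2 each and clone 1 for 1.

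Well above background is the stricter of the 2 flags that the scanner program sets. The weaker flag, for a signal that is positive and significant against the local background, was set for 29 of the 32 readings of members in normal animals. It was set in 3 of 4 normal animals for CBLN2, in 2 of 4 for TMEM130 and in 4 of 4 for the other 6 members. Thus every member gave some signal over background in at least 2 normal animals, and requiring that flag to be unset there left 0 members. In addition 4 of the 32 normal readings exceeded the lowest signal that counted as well above background elsewhere on the same array. These were 2 readings of A_73_107461 and 1 each of A_73_P109231 and A_73_P062721.

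The rule is applied to probes, and 5 of the 8 transcripts had further probes, 11 in all, that the rule did not select. SV2A had 3. Probe A_73_P410301 was well above background in all 8 animals, between -1.58 and -0.85 in clones and between -1.34 and -1.11 in normal animals, a log2 difference of -0.05. Probe A_73_P170562 was also well above background in all 8, with a difference of 0.09. On both the groups overlapped, so SV2A signal was present in the normal lungs, and the clone-only reading belonged to 1 of its 4 probes. The remaining probe, A_73_P400986, was not well above background in any animal.

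For CBLN2 the other probes were dim in both groups. Probe A_73_116999 was well above background in clone 4 alone, at -5.83, with the other clones between -7.67 and -6.46 and the normal animals between -8.28 and -6.81 (log2 signal). Probe A_73_P063996 was well above background in 0 of 8 animals. No CBLN2 probe was well above background in a normal animal, and 1 of its 3 probes was so in all clones. TMEM130, A_73_P081021 and A_73_107461 had 1 probe each, so no second probe bears on them.

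For the transcript of A_73_P109231, 3 of 4 other probes were well above background in all 8 animals. On A_73_118403 the clones read -0.38 to 0.92 and the normal animals -1.34 to -0.75, a log2 difference of 1.35. The differences on A_73_P138521 and A_73_P450736 were 1.27 and 1.23. On all 3 probes every clone exceeded every normal animal, as on 4.75% of all kept probes. This transcript was thus measured in normal lung, with lower readings there than in the clones. It was chosen on this contrast through its member probe, so the lower readings are no separate support. The transcript of A_73_P132876 was alike: its other probe, A_73_P094761, read -4.81 to -4.60 in clones and -5.99 to -5.29 in normal animals, a difference of 1.02. The transcript of A_73_P062721 was not: its other probe, A_73_120028, was well above background in 0 clones and 1 normal animal, with a difference of -0.28.

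In total 6 of the 11 other probes, from 3 transcripts, were well above background in all 8 animals. No probe was well above background in a normal animal for 4 of the 8 transcripts, those of CBLN2, TMEM130, A_73_P081021 and A_73_107461. For the last 3 of these the member is the only probe, so the rule fixed this outcome. CBLN2 had other probes, but they were below the limit in most clones as well. They therefore cannot show whether CBLN2 was absent from normal lung.

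**Figure D2:**
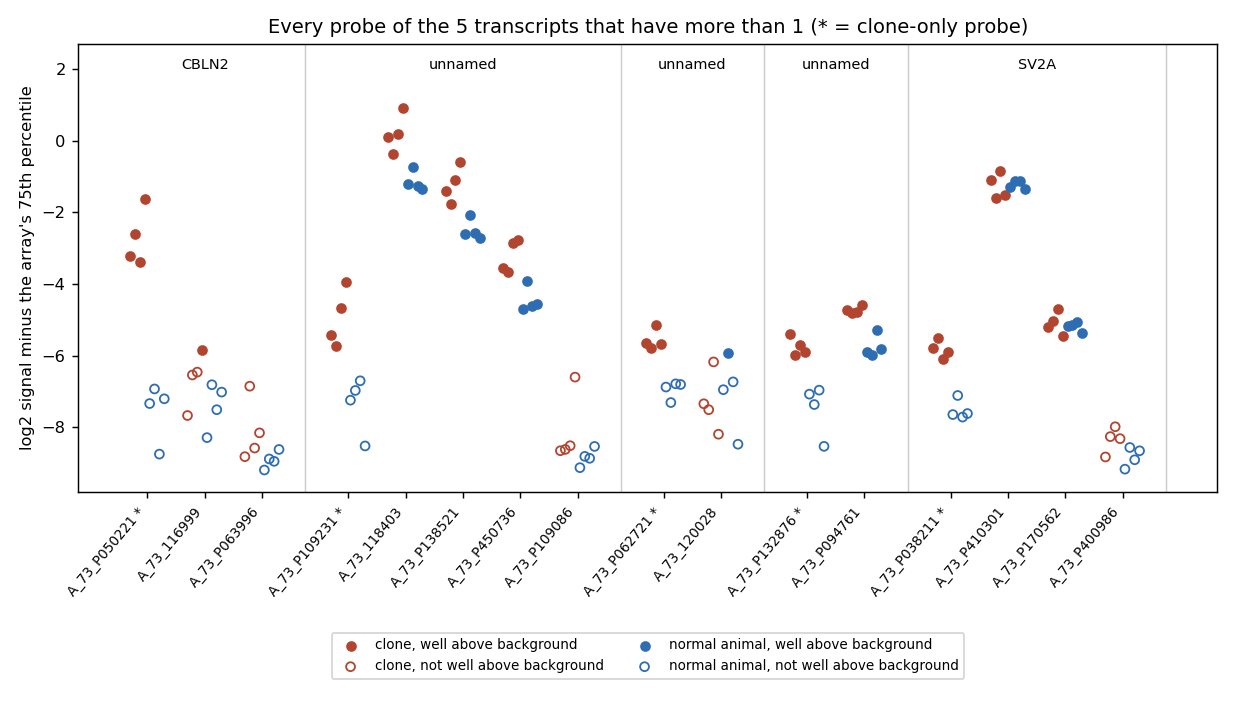
Log2 signal relative to the array's 75th percentile for every probe of the 5 member transcripts with more than 1 probe, with 4 clones (red) and then 4 normal animals (blue) at each probe; filled points are well above background and an asterisk marks the clone-only probe. SV2A and the transcript of A_73_P109231 have probes with filled blue points, while CBLN2 has none.

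Just outside the rule were 27 probes that were flagged in all 4 clones and also in 1 normal animal, whose reading enters the bound as measured. That animal was normal animal 1 for 13 of them and normal animal 3 for 11, against 2 for normal animal 4 and 1 for normal animal 2. The named genes with the largest bounds in this class were HMGB3, a chromatin protein (4.37-fold), CDC20, an activator of the anaphase-promoting complex (3.63-fold), SLC18A2, the vesicular monoamine transporter (2.98-fold), and CDC6, a DNA replication licensing factor (2.48-fold). Other probes of these genes were well above background in all 8 animals for HMGB3 (1 of 2 probes), CDC20 (1 of 3) and SLC18A2 (2 of 4), as was 1 of 2 for NCAPG below. A further 61 probes were well above background in 3 clones and in 0 normal animals. Clone 1 was the missing clone for 28 of them, clone 3 for 14, clone 4 for 13 and clone 2 for 6. Among named genes the largest bounds there were those of the MHC class II chain BOLA-DQA5 (77.9-fold, not flagged in clone 3), the Y-linked genes DDX3Y and USP9Y (22.7-fold and 22.5-fold, not flagged in clone 1) and the condensin subunit NCAPG (3.25-fold, not flagged in clone 3), while 2 unnamed probes reached 11.4-fold and 7.16-fold. Some bounds outside the rule were thus larger than any inside it, and what kept those probes out was 1 clone. For BOLA-DQA5 this holds for the probe only, since 1 of its 2 probes was well above background in at least 1 normal animal. For DDX3Y and USP9Y 0 probes were so.

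Clone 1 and the 4 normal animals lacked a DDX3Y and USP9Y signal well above background, while clones 2, 3 and 4 had it. All 8 members were well above background in clone 1 because the rule requires it of every clone, so this is no separate result. In clone 1 CBLN2 read -3.21 and TMEM130 -3.86, against at most -6.93 and -7.88 in the normal animals. On probe A_73_P048231 USP9Y read -0.30, 0.04 and -0.01 in clones 2 to 4 and -8.48 in clone 1. The normal animals lay between -8.82 and -8.25 (log2 signal). EIF1AY and SRY, also Y-linked, were not well above background in any animal. By DDX3Y and USP9Y, clones 2 to 4 would be taken as male and the other animals as female. Sex may thus differ between the groups. Any part of sex in the members' signals was not tested.

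**Figure D3:**
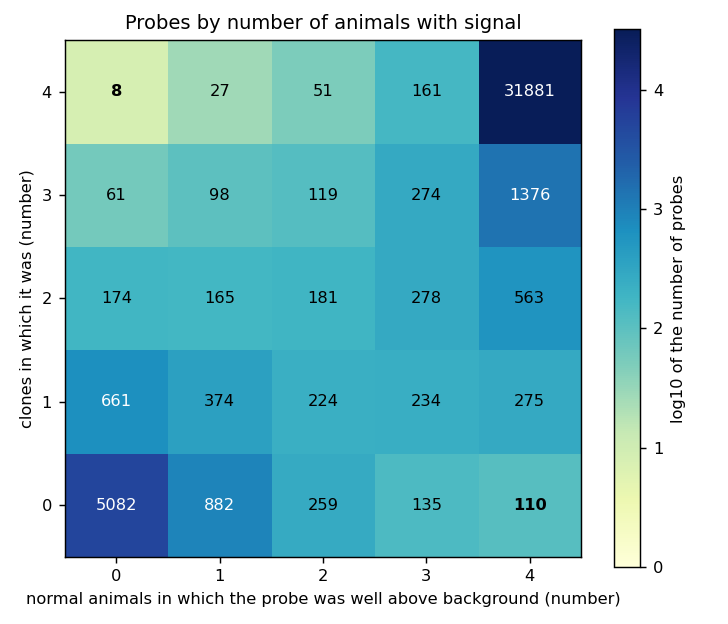
Number of probes by the number of normal animals (horizontal) and of clones (vertical) in which they were well above background; the colour is log10 of the number. The clone-only corner holds 8 probes and the normal-only corner 110, while 31881 probes were well above background in all 8 animals and 5082 in none.

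The partners and relatives of the named members were measured as well, in families added after the members were known. Of the other cerebellins, CBLN1 was well above background in 0 of 8 animals on both of its probes. CBLN3 was so in at most 2 clones and 1 normal animal on any probe, as was CBLN4. Clone 3 stood out for CBLN3 on A_73_120833, at -3.10 against -8.44 to -6.46 in the other clones. CBLN4 on A_73_P415091 reached -5.67 and -4.89 in clones 2 and 4.

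Neurexins are the receptors of cerebellins on the sending side of the synapse. NRXN2 was well above background in all 8 animals on 4 of its 5 probes, with log2 differences between 0.01 and 0.78. NRXN3 was well above background in all 8 on 0 of 2 probes. The 5 tested probes of NRXN2 and NRXN3 gave 0 calls by limma, with 0 at an unadjusted p under 0.05. Over all kept probes 0.177% were called and 4692 of 35636 had such a p.

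Neuroligins are the other partners of neurexins. NLGN2, the neuroligin of inhibitory synapses, read 0.76, 0.51, 0.56 and 0.25 in clones 1 to 4, against -0.85, -1.28, -0.87 and -1.06 in normal animals on probe A_73_108620. It rose by 1.54 in the clones (log2, 95% interval 1.11 to 1.96, limma adjusted p = 0.0208 over all kept probes). Its other well-measured probe gave a difference of 0.33 (adjusted p = 0.699) and its remaining probe was not well above background in any animal. With spike-in centring the NLGN2 difference was 0.86. The call held in 11 of 18 settings. It was lost with normexp (adjusted p = 0.499), with the replicate block (0.183), and without clone 2 or any 1 normal animal (0.0613 to 0.135). NLGN3 differed by 0.29 (adjusted p = 0.720).

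Among relatives of SV2A, SV2B was well above background in all 8 animals on 1 of 4 probes, with a difference of 0.13, and SV2C was not well above background in any animal. The relatives of TMEM130 were measured in all 8 animals: PMEL differed by 0.45 (adjusted p = 0.485), and the probes of GPNMB, a gene of macrophages and lysosomes, by 1.13 and 1.25 (adjusted p = 0.451 and 0.475). None of these passed the test.

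Genes beside the named members in the genome did not pass the test either. The 3 protein-coding genes on each side of CBLN2, TMEM130 and SV2A make 18 genes, of which 10 had a probe and 0 of 19 probes were called by limma. As 0.177% of all kept probes were called, a count of 0 among 19 says little. NETO1, an auxiliary subunit of glutamate receptors and the neighbour of CBLN2, read -7.08, -2.38, -5.25 and -1.98 in clones 1 to 4, against values between -7.39 and -5.89 in normal animals (log2 difference 2.29, adjusted p = 0.411). Clones 2 and 4 were high and clone 1 was within the normal range. The 5 probes of TRRAP, a cofactor of histone acetylation beside TMEM130, differed by 0.06 to 0.48. The histone gene H2AC20, near SV2A, differed by 1.24 (adjusted p = 0.0907), and all 3 probes of FBXO15, near CBLN2, differed by -0.76 to -0.69 (adjusted p 0.155 to 0.188).

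The same comparison over all kept probes gave 63 changed probes, 17 higher and 46 lower in clones, or 0.177% (limma, adjusted p under 0.05). Each gene of 16 lists was then represented by the kept probe whose mean over the 8 arrays was highest. Among all 9867 named genes 18 passed, 0.182%, 4 higher and 14 lower, and the median log2 difference was -0.02. On the lists 4 genes passed, of which CBLN2 and TMEM130 are members of the set. As the rule chose both on this contrast, their calls carry no weight here. The remaining 2 were NLGN2 and TFAP2C. An unadjusted p under 0.05 was reached by 13.0% of the named genes, and 48.4% had a positive difference.

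Of 36 synapse organisers 16 were on the array and 12 were kept. Without CBLN2, 6 of the 11 others were higher and 5 lower, with a median log2 difference of 0.01, and NLGN2 was the 1 call among them. LRRTM3, a postsynaptic adhesion protein, differed by -2.65 (adjusted p = 0.284) and PTPRF, a receptor phosphatase that organises synapses, by 0.47 (adjusted p = 0.362).

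Among markers of neurons and neuroendocrine cells no single gene passed the test. Of 14 kept markers 13 had a positive difference, with a median of 0.39 (log2), and 0 passed by limma while 3 had an unadjusted p under 0.05. The shares over all named genes were 48.4% with a positive difference and 13.0% with such a p. Averaged over its genes, the list lay between -3.39 and -2.97 in the clones and between -3.80 and -3.58 in the normal animals, without overlap, as did the hypoxia list, at 1.60 to 2.22 against 1.18 to 1.31. With spike-in centring 3 of the 14 markers had a positive difference, the median was -0.29, and neither list was separate. SNAP25, which takes part in the fusion of synaptic vesicles, read -2.62, -2.57, -2.52 and -2.60 in clones. In normal animals it read -3.17, -3.35, -3.21 and -3.23 (difference 0.66, adjusted p = 0.132). It was the 1 marker of these 14 in which every clone exceeded every normal animal, a separation that 4.75% of all kept probes showed. The filament gene PRPH differed by 1.89 (adjusted p = 0.298) and the secretory protein SCG5 by 2.19 (adjusted p = 0.355), while synaptophysin (SYP) differed by 0.02 and chromogranin B (CHGB) by -0.64. The part of such cells in the members' signals was not tested.

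Other tissues that a lung sample could hold were examined in the same way. The median log2 difference was -0.31 for 4 Schwann and glial genes, -0.36 for 5 of cartilage, -0.06 for 9 of cardiac and skeletal muscle and 0.25 for 4 of mesothelium. It was -0.05 for 8 of squamous and basal epithelium, -0.64 for 2 of germ cells and 0.16 for 6 of B and plasma cells, with 0 calls by limma on these 7 lists and 4 genes at an unadjusted p under 0.05, against the 13.0% of all named genes. The 6 placental genes had a median of -0.10, and among them TFAP2C, a trophoblast transcription factor, fell by 1.36 in clones (log2, adjusted p = 0.0412). That call held in 9 of 18 settings and was lost with normexp (adjusted p = 0.657), with the filter on all 8 arrays (0.0667), with the replicate block (0.269), and without clone 2, clone 4 or any 1 normal animal (0.0913 to 0.195).

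Genes of growth and stress gave no call. All 16 cell cycle genes had a positive difference, with a median of 2.03 (log2), as did 15 of 16 hypoxia genes (median 0.64) and 10 of 13 fetal growth and oncofetal genes (median 0.35). None of these passed by limma over all kept probes, and 11, 4 and 0 of them had an unadjusted p under 0.05. Over all named genes 13.0% had such a p and 48.4% a positive difference. Averaged over its genes, the cell cycle list read 0.50, -1.70, -3.29 and -1.04 in clones 1 to 4 and between -4.21 and -2.52 in normal animals. Clone 1 was the highest and clone 3 lay within the normal range. Every clone exceeded every normal animal in 2 of the 16 genes, against 4.75% of all kept probes. With spike-in centring the medians were 1.35 for the cell cycle, -0.04 for hypoxia and -0.33 for fetal growth. The one kept Y-linked gene, ZFY, differed by 0.09. Its probe was well above background in all 8 animals, also in those without DDX3Y or USP9Y signal, so it does not stand for Y-linked signal. DDX3Y and USP9Y were not kept by the filter. As measured they differed by 5.28 (DDX3Y) and by 6.32 and 2.57 (USP9Y). The 12 lung tissue genes had a median of -0.07, with 5 higher and 7 lower. They gave 0 calls by limma and 2 at an unadjusted p under 0.05, against the 13.0% of all named genes. These 2 were lower in clones, and 1 of them was SCGB1A1 (difference -1.81, limma adjusted p = 0.202).

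**Figure D4:**
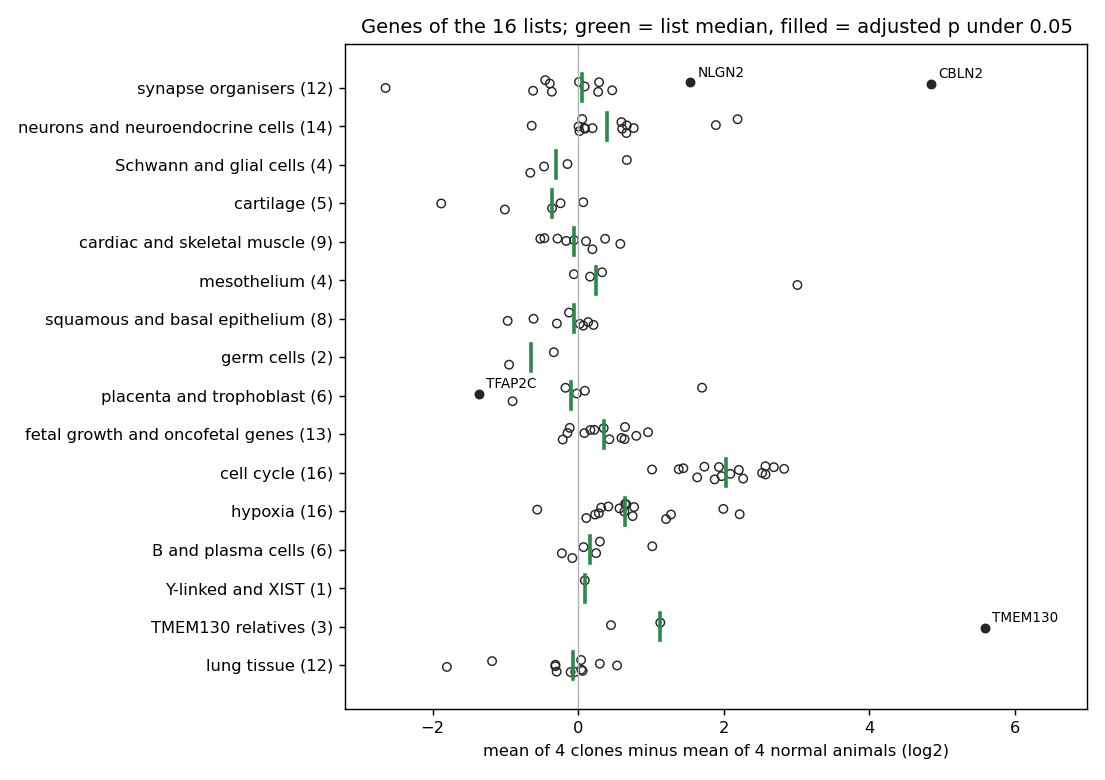
Log2 difference between the means of 4 clones and 4 normal animals for each kept gene of the 16 lists, with the number kept in brackets; green bars are list medians, and filled points passed limma at an adjusted p under 0.05. CBLN2 and TMEM130, which the rule selected on this contrast, lie far to the right of the other genes of their lists, and NLGN2 and TFAP2C are the other filled points.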

How the data were processed

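Per the file headers, the authors' deposited scanner files hold the processed intensity of each spot with background already subtracted, written by Agilent Feature Extraction, version 10.7 in the submitters' processing notes. The authors' deposited table of log2 values served as an alternative (correlation with the scanner signal 0.99948 or more). For the signal, control and outlier spots were left out and the 75th percentile of the array was subtracted from the log2 values with no pseudocount. The spots of a probe were then averaged. The detection flags used all spots that are not controls, outlier spots included. No spot was saturated. The comparison of groups used R 4.3.3 with limma 3.58.1 (lmFit and eBayes, group as the sole term, 2-sided, Benjamini-Hochberg over 35636 probes well above background on at least 4 arrays). Symbols came from unversioned accessions matched to RefSeq genes of assembly ARS-UCD2.0 (23492 of 43653 probes). The array design names another build, so no coordinates are given. The order of neighbouring genes is that of ARS-UCD2.0.

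The members and the gene lists were chosen with earlier results of these data known. The genes named were TMEM130 and CBLN2, every member with a symbol, up to 4 just outside the rule by bound in each class, and per list those past the threshold with up to 3 of the smallest p. SYP and CHGB, the relatives of CBLN2, NRXN2, NLGN2 and SV2A and the neighbours were added after values were seen. Only part of what the rule allows is printed, and 1 gene is not reported here. Normexp used the median spot signal with an offset of 50, in place of the mean signal planned for it, a choice made after seeing the data, as was that of the authors' table for the bounds. Replicate numbers were taken from the titles. On simulated data with 35590 probes limma recovered 5, 25, 43 and 44 of 50 probes changed by 1, 2, 3 and 4 (log2), with 8 false calls among 125. The simulation gave both groups the same spread on each probe. In the data the median SD over kept probes was 0.53 in clones and 0.17 in normal animals, so these figures may not carry over.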

Additional observations from a re-analysis of the deposited data

Results flagged for a closer look

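Of 42 groups of 4 animals examined, over the members, the other probes of their transcripts, NLGN2 and TFAP2C, 2 held an animal far from the rest, and chance gives about 1 in 20. Normal animal 2 was highest for SV2A on its clone-only probe A_73_P038211, at -7.11 against -7.71 to -7.61 in the other 3 (log2 signal, not well above background). Clone 4 was highest on A_73_P109086, a probe of the transcript of A_73_P109231, at -6.60 against -8.65 to -8.51 in the other clones, again not well above background.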

How the results depend on the processing

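The number of clone-only probes, 8, was unchanged when every spot of a probe had to be flagged and when outlier spots were left out. Each member had 1 spot, so the first of these settings could not remove any. Outlier spots were few, 2 to 21 on an array, so the second could change little. It was 10 with the weaker flag in both groups, of which 0 were among the 8, and 0 when the weaker flag had to be unset in normal animals. It was 69 with at least 3 of 4 clones (245 in the mirror rule) and 3 when every clone had to be 2-fold above the lowest signal, namely CBLN2, TMEM130 and A_73_P081021. With 1 animal left out it ranged from 9 to 36, the latter without clone 1; a rule over fewer animals keeps all 8 by its construction. The median bound moved from 3.12-fold to 2.18 without centring, 1.95 with spike-in centring and 1.79 with the higher floor, and ranged from 2.82 to 3.30 with 1 animal left out. Normexp gave no bound for 6 of the 8, all but CBLN2 and TMEM130, so no minimum fold holds for those 6 across the settings.

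The 63 changed probes became 10249 with spike-in centring (66 higher, 10183 lower, median of all probes -0.70), 0 with normexp (2278 at an unadjusted p under 0.05, median -0.32), 17 with the filter on all 8 arrays, and 146 with trend and robust settings (86 higher, 60 lower). With the replicate block they were 13 (3 higher, 10 lower), and genes called on the lists fell from 4 to 2, both of them members that the rule chose, so 0 of the others were called. The replicate numbers did not pair the animals: same-numbered deviations correlated at 0.092, 0.099, -0.203 and -0.099. Called list genes were 29 with spike-in centring, 0 with normexp and 1 with the filter on all 8 arrays. With 1 animal left out changed probes ranged from 17 (without normal animal 4) to 2562 (without clone 1), with 451 without clone 3, and called list genes from 1 to 21. The slide could not be fitted as a block, since each slide held 1 group.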

Other observations

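With the weaker flag, for signal positive and significant against local background, 10 probes had signal in all 4 clones and in 0 normal animals, and none of them is among the 8. Both probes of CADPS, which primes secretory vesicles for calcium-triggered release, were of this kind. On A_73_110402 CADPS read -6.59, -6.08, -7.49 and -4.18 in clones 1 to 4 and between -8.86 and -8.22 in normal animals (log2 signal). On A_73_P112786 it read -8.16, -7.37, -8.00 and -5.18, against -9.20 to -8.68. Clone 4 was the highest on both, and each probe was well above background in 1 clone. The mirror rule with the weaker flag held 57 probes. These probes were picked on the same contrast and carry no test.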
